A study of Homo sapiens with 15 samples.

Results

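Senescent IMR90 cells treated with DMSO, a common solvent for small molecules, were compared with senescent IMR90 cells of the control condition. IMR90 is a long-used line of fibroblasts from human fetal lung. The comparison uses 6 of the 15 libraries of the series, chosen by their labels alone: 3 DMSO libraries and 3 senescent control libraries. The series asks how TXNRD1, the cytosolic thioredoxin reductase, bears on the innate immune response of senescent cells, and its other groups of 3 libraries are senescent cells with TRi-1 (Tri-1 in the labels), an inhibitor of TXNRD1, senescent cells with a short hairpin against TXNRD1, and growing control cells. The sample labels do not state the solvent of TRi-1, and the DMSO set is taken here as its solvent-treated counterpart. On that reading, the comparison shows what lies between the 2 sets of senescent cells that could serve as a baseline for the inhibitor.

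The 2 groups share the cell line and the senescent state. The sources used here do not give how senescence was induced, the dose and time of DMSO, whether the control cells carried a control hairpin, whether the 2 sets were cultured and prepared together, or whether the replicates were separate cultures. Exposure to DMSO and any difference in how the 2 sets were made cannot be told apart. The p-values rest on a spread between replicates estimated over all 15 libraries of the series, not these 2 groups alone, and that spread may be technical. In bulk RNA, fewer cells of a type and less RNA per cell cannot be told apart.

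Cellular senescence is a lasting arrest of the cell cycle. Senescent fibroblasts secrete cytokines, chemokines, growth factors, proteases and matrix proteins, largely under the transcription factors NF-kB and C/EBP beta, and they shut down the genes of DNA replication and mitosis. DMSO crosses membranes and is widely used to dissolve inhibitors before they are added to culture medium.

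Total counts were 20208075, 19864361 and 28909046 in the DMSO libraries, against 25246314, 20710735 and 20586451 in the senescent controls. Levels are CPM, counts scaled by TMM to a common library size, and a level in CPM is not comparable between genes of different length. The first principal component of the 6 libraries held 38.0% of the variance and separated the groups. On the second, DMSO replicate 1 (28.9) lay apart from DMSO replicates 2 and 3 (-20.8 and -17.4). The senescent controls were spread along it as well (7.41, -17.3 and 19.2). The chi-square per degree of freedom was 9.74 and 12.9 for the replicate pairs with DMSO replicate 1. It was 1.59 for DMSO replicates 2 and 3, and from 3.49 to 9.05 among the senescent controls. The GC content of the counts of DMSO replicate 1 was 46.9%. It was 47.6% and 47.7% in the other DMSO libraries and 47.3% to 47.9% in the senescent controls. The fibroblast genes VIM and COL1A1 were present in all 6 libraries. The leukocyte marker CD3E was at 0 counts, and PTPRC totalled 8 counts over the DMSO libraries and 13 over the senescent controls. None of 3 tested leukocyte markers and none of 5 tested epithelial markers passed the test in either direction. Those tested were not absent. The leukocyte markers summed to 62.0 to 80.2 CPM in the DMSO libraries and 78.3 to 87.5 CPM in the senescent controls. The epithelial markers summed to 45.7 to 48.6 CPM and 50.2 to 55.9 CPM in the same groups.

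Of 15994 genes tested across the table with the edgeR quasi-likelihood test, 1337 were higher and 1258 lower in DMSO cells at an adjusted p under 0.05 (Benjamini-Hochberg). That is 8.36% of the genes tested higher, 7.87% lower and 16.2% in all. Counts of list members called between these groups are read against these shares. The changes were mostly modest: 462 genes rose (2.89% of those tested) and 423 fell (2.64%) by at least 1.5-fold, and 149 rose (0.932%) and 134 fell (0.838%) by at least 2-fold. The median log2 fold change over all genes tested was -0.01 and the median SE 0.13. Without DMSO replicate 1, 928 genes were higher and 971 lower. The GC content of a gene and its log2 fold change had a Spearman correlation of -0.12 across 15433 genes, which are not independent replicates. With the GC trend of each library removed, 2694 genes were higher and 2586 lower of 15433 tested. Calls were thus more frequent in both directions over all genes. List counts with the GC trend removed are read against these numbers and not against the shares above.

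**Figure D1:**
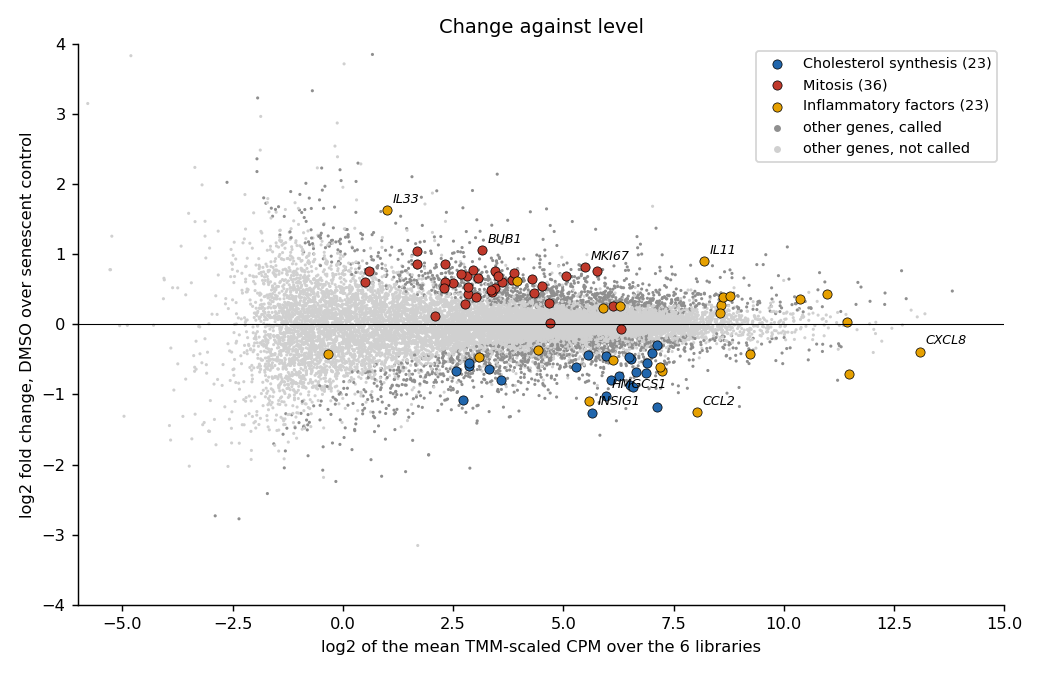
Log2 fold change of each tested gene in DMSO over senescent control cells against the log2 of its mean TMM-scaled CPM over the 6 libraries, with the members of 3 gene lists in colour and 17 genes outside the axes not drawn. The 23 cholesterol genes all lie below 0, 35 of the 36 mitosis genes lie above 0, and the inflammatory factors spread to both sides.

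Genes of cholesterol synthesis and uptake were lower in DMSO cells. Of 23 tested genes, 19 fell and 0 rose, with a median log2 fold change of -0.67, against 7.87% of all genes called lower and an overall median of -0.01. All 23 had lower levels in every DMSO library than in any senescent control library, as did 20.2% of all genes tested. Without DMSO replicate 1, 18 fell, and with the GC trend of each library removed all 23 fell. Cells make cholesterol from acetyl-CoA through the mevalonate pathway, and the genes of the pathway are switched on by SREBP2 when sterols in the endoplasmic reticulum run low. INSIG1 holds the SREBP precursor in that compartment when sterols are abundant and is itself a target of SREBP.

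Stretches of the promoters of INSIG1 and of MVK (mevalonate kinase) are shown because the genes of the list moved together. The sequences are from RefSeq promoters (GRCh38.p14), end before the annotated start of transcription and run 5′ to 3′ along the gene. Capitals mark CCAAT, the box bound by the factor NF-Y, or its reverse complement ATTGG. The stretches lie at chr7:155297668-155297787 (plus strand) and chr12:109573544-109573743 (plus strand).
INSIG1 promoter: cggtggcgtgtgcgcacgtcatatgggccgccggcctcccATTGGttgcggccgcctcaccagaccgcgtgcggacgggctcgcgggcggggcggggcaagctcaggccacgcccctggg
MVK promoter: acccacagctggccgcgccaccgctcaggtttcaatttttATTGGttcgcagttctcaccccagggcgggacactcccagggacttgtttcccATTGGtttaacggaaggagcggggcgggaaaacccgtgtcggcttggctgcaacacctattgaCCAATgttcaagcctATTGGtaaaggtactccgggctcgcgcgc
The INSIG1 stretch holds 1 box and the MVK stretch 4. CCAAT in either direction was found in the 250 bases before the start in 16 of 18 list members with a promoter in the RefSeq table (88.9%), and in 32.0% of all 35116 promoters in the table. A member counted if any of its promoters held the box, whereas all promoters were counted entry by entry. A gene with several entries had more chances, so the shares are not strictly alike. A match of letters is a description and not a binding site.

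INSIG1 had 31.9, 27.99 and 29.05 CPM in the DMSO libraries, against 72.5, 67.2 and 73.3 CPM in the senescent controls. The libraries did not overlap, and INSIG1 fell 2.40-fold (-1.26 ± 0.07, adjusted p = 1.64e-07, edgeR with Benjamini-Hochberg, as are all adjusted p-values here).

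The fall ran along the pathway. At its entry, HMGCS1, the cytosolic HMG-CoA synthase, had 41.6 ± 1.72 CPM with DMSO and 84.1 ± 3.94 CPM in the senescent control (SD, n = 3; -1.02 ± 0.11, adjusted p = 2.43e-05). Among the isoprenoid steps, MVK changed by -1.07, IDI1 by -0.74 and FDPS by -0.70 on the log2 scale. SQLE and CYP51A1, which act on squalene and lanosterol, changed by -0.46 and -0.68. DHCR7, a reductase of the last steps to cholesterol, changed by -0.80. All of these passed the test. The 4 members that did not pass were LSS (-0.86), MVD (-0.64), TM7SF2 (-0.55) and SREBF2, which encodes SREBP2 itself (-0.29 ± 0.12, adjusted p = 0.122). Relative to the senescent control mean, the median over the list was -0.63, -0.70 and -0.63 on the log2 scale in the DMSO libraries. It was -0.52, -0.61 and -0.73 in the libraries with the hairpin against TXNRD1 and -0.46, -0.42 and -0.45 in growing cells, so the senescent control libraries were the highest of these groups.

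Genes of mitosis were higher in DMSO cells. Of 36 tested genes, 30 rose and 0 fell, against 8.36% of all genes called higher, with a median log2 fold change of 0.61. In 31 of the 36 every DMSO library lay above every senescent control library, which held for 19.5% of all genes tested. Without DMSO replicate 1, 26 rose. Mitosis genes are transcribed late in the cell cycle, through the MuvB complex with B-MYB and FOXM1, and their promoters often carry CCAAT boxes.

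Promoter stretches of BUB1 and MKI67 (minus strand genes) are shown to set beside those of the cholesterol genes, with CCAAT and ATTGG again in capitals. They lie at chr2:110678064-110678182 (minus strand) and chr10:128126433-128126561 (minus strand).
BUB1 promoter: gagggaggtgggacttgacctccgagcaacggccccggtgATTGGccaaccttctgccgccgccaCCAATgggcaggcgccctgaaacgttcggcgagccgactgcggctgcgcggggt
MKI67 promoter: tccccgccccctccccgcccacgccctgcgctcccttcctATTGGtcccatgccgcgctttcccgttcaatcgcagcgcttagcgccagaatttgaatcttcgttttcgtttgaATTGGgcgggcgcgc
The box was found before the start of 25 of 30 mitosis genes in the RefSeq table (83.3%), against 32.0% of all promoters. These shares too were counted by gene for the list and by entry for all promoters. Lists that moved in opposite directions held it at like shares.

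BUB1, a kinase of the spindle checkpoint, had 14.1, 11.3 and 10.97 CPM in the DMSO libraries, against 5.799, 4.99 and 6.55 CPM in the senescent controls. It rose 2.09-fold (1.06 ± 0.12, adjusted p = 5e-05). MKI67, which encodes the proliferation marker Ki-67, had 56.2, 57.9 and 57.4 CPM in the DMSO libraries, against 29.8, 33.6 and 34.2 CPM in the senescent controls, with no overlap between the groups. It rose 1.76-fold (0.81 ± 0.07, adjusted p = 2.94e-06).

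Other members rose as well. Among the cyclins, CCNA2 changed by 0.76, CCNB1 by 0.64 and CCNB2 by 0.59, and their partner kinase CDK1 by 0.46 on the log2 scale. TOP2A, the topoisomerase that untangles chromosomes, averaged 68.05 ± 4.41 CPM with DMSO and 40.1 ± 2.02 CPM in the senescent control (SD, n = 3; 0.76 ± 0.09, adjusted p = 6.88e-05). The kinetochore and checkpoint genes CENPF, TTK and BUB1B changed by 0.70, 0.85 and 0.66. Among kinases of spindle assembly, AURKB rose (1.05 ± 0.21, adjusted p = 0.00296). Of the 6 members that did not pass, UBE2C was at 0.11, HMMR at 0.30, CENPA at 0.61 and CDC25C at 0.76. HMMR and CDC25C passed with the GC trend removed (adjusted p = 0.0391 and 0.0291).

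The levels of mitosis genes remained far below those of growing cells. MKI67 averaged 57.2 ± 0.865 CPM with DMSO, 32.5 ± 2.35 CPM in the senescent control and 228 ± 19.3 CPM in growing cells (SD, n = 3 each). For the list as a whole, the median over members of the log2 level relative to the senescent control mean was 0.66, 0.54 and 0.52 in the DMSO libraries, -0.67, -0.51 and -0.54 in the libraries with the hairpin and 2.57, 2.56 and 2.48 in the growing libraries.

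Genes of the S phase did not move with those of mitosis. Of 34 tested genes, 1 rose and 3 fell, against 8.36% of all genes called higher and 7.87% called lower, with a median of 0.06. PCNA, the sliding clamp of DNA polymerase, had 40.8, 35.3 and 34.8 CPM in the DMSO libraries, against 44.04, 44.4 and 43.4 CPM in the senescent controls (-0.25 ± 0.07, adjusted p = 0.0309). GINS4, a subunit of the replication helicase, was the 1 member that rose (0.40 ± 0.12, adjusted p = 0.0332), and MCM4, a subunit of the same helicase, was among the falls. These calls were not stable: with RLE scaling no member was lower, and without senescent control replicate 1 or 3, or DMSO replicate 2 or 3, no member was called in either direction.

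Among 20 genes of the senescent arrest, 7 rose and 1 fell, against 8.36% and 7.87% of all genes tested. The list holds markers lost in senescence and inhibitors of the cell cycle alike, so its counts have no single meaning. Relative to the senescent control mean, the list median on the log2 scale was 0.29, 0.17 and 0.21 in the DMSO libraries. In growing cells it was 0.54, 0.52 and 0.50. LMNB1, the lamin B1 gene, a marker lost in senescence, had 12.2, 10.9 and 10.7 CPM in the DMSO libraries, against 6.205, 5.64 and 5.801 CPM in the senescent controls. It rose 1.91-fold (0.93 ± 0.10, adjusted p = 4.05e-05). CDKN2B, which encodes the cyclin-dependent kinase inhibitor p15, had 138, 129 and 136 CPM in the DMSO libraries, against 78.2, 72.97 and 82.01 CPM in the senescent controls and also rose (0.79 ± 0.06, adjusted p = 2.71e-06). CDKN2A, its neighbour, which encodes p16 and ARF, averaged 17.3 ± 1.72 CPM with DMSO and 10.8 ± 0.521 CPM in the senescent control (SD, n = 3; 0.67 ± 0.08, adjusted p = 0.000106). CDKN1A, which encodes p21, was at -0.15 and did not pass (adjusted p = 0.323), though its DMSO libraries all lay below the senescent controls. HMGB2, a chromatin protein lost early in senescence, rose (0.63 ± 0.08, adjusted p = 0.000136). With the GC trend removed, 12 of the 20 were higher, as were 2694 of all 15433 genes tested in that setting.

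**Figure D2:**
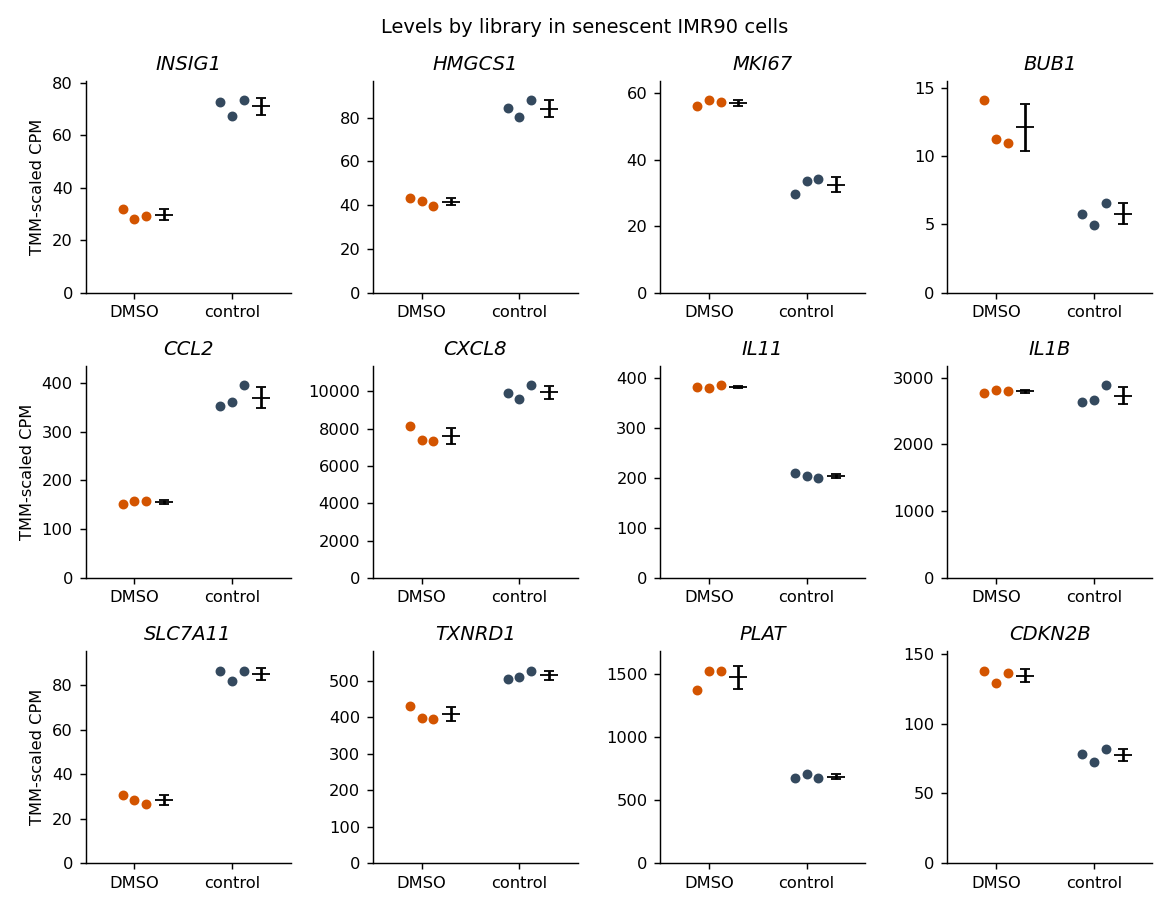
TMM-scaled CPM of 12 genes in each DMSO and senescent control library (points), with the mean and SD of each group of 3 libraries beside them, on linear axes from 0. The groups do not overlap for any gene drawn other than IL1B.

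The inflammatory factors of the secretory phenotype moved in both directions. Of 23 tested genes, 7 rose and 10 fell, against 8.36% of all genes called higher and 7.87% called lower, and the median log2 fold change was 0.03. The falls took in most CXC chemokines and CCL2, and the rises took in IL11, IL33, CXCL5 and CXCL6. The summed level of the list was 19253 to 20584 CPM in the DMSO libraries and 21802 to 23141 CPM in the senescent controls.

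CXCL1, CXCL2, CXCL5 and CXCL6 encode neighbouring chemokines on chromosome 4 that attract neutrophils through CXCR2, and their promoters are shown because the first pair fell and the second pair rose. Capitals mark a form of the NF-kB motif, spelled GGGA, then any base, then TTTCC, and searched on both strands. The stretches lie at chr4:73869274-73869392 (plus strand), chr4:74099196-74099313 (minus strand), chr4:73998689-73998808 (minus strand) and chr4:73836548-73836667 (plus strand).
CXCL1 promoter: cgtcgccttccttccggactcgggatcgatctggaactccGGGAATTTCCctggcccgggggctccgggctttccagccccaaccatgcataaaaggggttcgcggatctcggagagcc
CXCL2 promoter: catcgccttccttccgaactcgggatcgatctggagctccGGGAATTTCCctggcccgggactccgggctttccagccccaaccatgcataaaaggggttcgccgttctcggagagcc
CXCL5 promoter: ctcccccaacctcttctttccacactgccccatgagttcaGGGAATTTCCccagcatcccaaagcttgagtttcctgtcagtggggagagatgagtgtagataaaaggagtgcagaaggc
CXCL6 promoter: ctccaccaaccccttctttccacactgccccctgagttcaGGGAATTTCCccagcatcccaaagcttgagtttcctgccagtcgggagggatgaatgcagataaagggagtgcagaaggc
Each of the 4 stretches holds the motif once, on the strand of the gene, starting 79, 78, 91 and 90 bases before the start of transcription. The motif was found in 0.527% of all promoters of the RefSeq table and in 6 of 20 list members with an entry, 4 of which fell (CXCL1, CXCL2, CXCL3 and IL6) and 2 of which rose (CXCL5 and CXCL6). Here as well, list members were counted by gene and all promoters by entry. CXCL1 and CXCL2 have near-identical paralogs, and reads shared between the members may have been split in counting.

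CXCL1 had 2325, 2062 and 2103 CPM in the DMSO libraries, against 3611, 3414 and 3574 CPM in the senescent controls, and fell 1.63-fold (-0.71 ± 0.07, adjusted p = 1.93e-05). CXCL2 had 33.2, 29.6 and 29.8 CPM in the DMSO libraries, against 67.6, 63.5 and 65.6 CPM in the senescent controls. Its fall was 2.13-fold (-1.09 ± 0.07, adjusted p = 2.06e-07), and no DMSO library reached a senescent control library for either gene. CXCL5, by contrast, averaged 2329.6 ± 159 CPM with DMSO and 1730.03 ± 55.8 CPM in the senescent control (SD, n = 3; 0.43 ± 0.07, adjusted p = 0.00105), and CXCL6 averaged 444 ± 35.8 CPM with DMSO and 339.98 ± 4.33 CPM in the senescent control (0.38 ± 0.09, adjusted p = 0.00827).

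CCL2, which attracts monocytes, had 151, 157 and 157 CPM in the DMSO libraries, against 353, 361 and 395 CPM in the senescent controls. It fell 2.38-fold (-1.25 ± 0.06, adjusted p = 5.4e-08). CXCL8, the interleukin 8 gene, had 8119, 7369 and 7321 CPM in the DMSO libraries, against 9938, 9587 and 10322 CPM in the senescent controls. Its fall was 1.31-fold (-0.39 ± 0.10, adjusted p = 0.0198) and lost its call without senescent control replicate 1 or 3 or DMSO replicate 2 or 3 (adjusted p from 0.0507 to 0.0774).

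IL6, the cytokine of the acute phase, had 509, 522 and 515 CPM in the DMSO libraries, against 679, 678 and 723 CPM in the senescent controls. It fell 1.35-fold (-0.43 ± 0.05, adjusted p = 4.21e-05). IL11, of the same cytokine family, had 381, 380.4 and 386 CPM in the DMSO libraries, against 209, 204 and 199.8 CPM in the senescent controls. It rose 1.87-fold (0.91 ± 0.05, adjusted p = 1.54e-07), so that members of one family moved in opposite directions. IL33, an alarmin stored in the nucleus, was low in both groups and rose: it averaged 3.02 ± 0.133 CPM with DMSO and 0.971 ± 0.0802 CPM in the senescent control (SD, n = 3; 1.63 ± 0.20, adjusted p = 0.000167).

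The interleukin 1 genes, which act upstream of much of the secretory phenotype, changed little. IL1A had 438, 407 and 402 CPM in the DMSO libraries, against 350.4, 328 and 355 CPM in the senescent controls, and passed narrowly (0.27 ± 0.08, adjusted p = 0.0313), with the call lost on leaving out any 1 of the 6 libraries (adjusted p from 0.0573 to 0.116). IL1B had 2772, 2819 and 2803 CPM in the DMSO libraries, against 2643, 2670.4 and 2886 CPM in the senescent controls. Those groups overlapped (0.03 ± 0.06, adjusted p = 0.802).

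NF-kB targets split as well. Of 28 tested, 5 rose and 8 fell, against 8.36% and 7.87% of all genes tested. The median was -0.16, and with the GC trend removed 13 were lower, as were 2586 of all 15433 genes tested. TNFAIP3, the ubiquitin-editing enzyme A20 that damps NF-kB signalling, had 61.9, 61.6 and 63.7 CPM in the DMSO libraries, against 117, 120.5 and 121 CPM in the senescent controls. It fell 1.92-fold (-0.94 ± 0.07, adjusted p = 7.31e-07). ICAM1, an adhesion molecule, had 881, 978 and 1002 CPM in the DMSO libraries, against 522, 547 and 515 CPM in the senescent controls, and rose 1.81-fold (0.85 ± 0.08, adjusted p = 9.03e-06). The inhibitor NFKBIA changed by -0.23 and the subunit gene NFKB1 by -0.39, both called; with no filter on low counts the first lost its call (adjusted p = 0.0613). The count of risers dropped to 3 without senescent control replicate 1 or 2 or DMSO replicate 2 or 3.

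Among 33 interferon-stimulated genes, 2 rose and 8 fell, against 8.36% and 7.87% of all genes tested, with a median of -0.18. GBP1, a guanylate-binding GTPase, averaged 47.4 ± 1.65 CPM with DMSO and 73.4 ± 2.11 CPM in the senescent control (SD, n = 3; -0.63 ± 0.07, adjusted p = 5.42e-05), and SAMD9L averaged 35.5 ± 1.79 CPM with DMSO and 53.5 ± 3.17 CPM in the senescent control (-0.59 ± 0.09, adjusted p = 0.000738). IFIT3, of the family of interferon-induced RNA-binding proteins, and HERC6, a ubiquitin ligase, changed by -0.49 and -0.55, both called. MX1, an antiviral GTPase, was at -0.74 and did not pass (adjusted p = 0.103). The number lower was 5 without senescent control replicate 1 or 3 or DMSO replicate 1 or 2, and 4 without DMSO replicate 3. The 2 risers, RIGI and IFI6, were both lost without senescent control replicate 1 or 2 or DMSO replicate 1 or 2.

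The sensors of nucleic acids bear on the question of the series. Of 15 tested, 4 rose and 1 fell, against 8.36% and 7.87% of all genes tested. STING1, the adaptor of cytosolic DNA sensing, had 80.6, 86.8 and 91.8 CPM in the DMSO libraries, against 55.7, 59.5 and 54.4 CPM in the senescent controls. It rose 1.53-fold (0.61 ± 0.10, adjusted p = 0.000957). ENPP1, which degrades the STING ligand cGAMP outside the cell, had 39.3, 37.5 and 36.8 CPM in the DMSO libraries, against 13.9, 13.3 and 15.5 CPM in the senescent controls, and rose 2.66-fold (1.41 ± 0.10, adjusted p = 1.2e-06). CGAS, the sensor that makes cGAMP, was at -0.34 without a call (adjusted p = 0.0956) and was called lower with the GC trend removed (adjusted p = 0.026). TXNRD1 had 430.2, 399 and 395 CPM in the DMSO libraries, against 506, 511 and 528 CPM in the senescent controls, and fell 1.26-fold (-0.34 ± 0.07, adjusted p = 0.00526). HRAS, a RAS proto-oncogene, overlapped between the groups (-0.05 ± 0.35, adjusted p = 0.952). The number of sensors higher was 2 without senescent control replicate 1 or 2 or DMSO replicate 1 or 2.

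Secreted proteases, their inhibitors and binding proteins were more often called higher than lower. Of 23 tested genes, 7 rose and 2 fell, against 8.36% of all genes called higher and 7.87% called lower, with a median of 0.15. PLAT, the tissue plasminogen activator, had 1373, 1529 and 1531 CPM in the DMSO libraries, against 678, 711 and 672 CPM in the senescent controls. It rose 2.15-fold (1.105 ± 0.09, adjusted p = 1.88e-06). STC1, a secreted glycoprotein, averaged 3952 ± 79.3 CPM with DMSO and 2609.9 ± 165 CPM in the senescent control (SD, n = 3; 0.60 ± 0.08, adjusted p = 0.000141). The fall was clearest in ADAMTS1, a matrix protease, which had 161, 156 and 151 CPM in the DMSO libraries, against 291, 292 and 298 CPM in the senescent controls (-0.91 ± 0.06, adjusted p = 3.94e-07). The collagenase MMP1 was at 0.20 without a call (adjusted p = 0.129) and rose with the GC trend removed (adjusted p = 0.000201). The stromelysin MMP3 was at -0.06 (adjusted p = 0.738). With the GC trend removed, 11 were higher, as were 2694 of all 15433 genes tested in that setting.

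Matrix genes were divided. Of 33 collagens and other matrix genes, 10 rose and 6 fell, against 8.36% and 7.87% of all genes tested, with a median of 0.11. COL6A3, a chain of microfibrillar collagen VI, had 8029.6, 8315 and 8287 CPM in the DMSO libraries, against 4852, 4978 and 4661 CPM in the senescent controls. It rose 1.70-fold (0.77 ± 0.07, adjusted p = 4.42e-06). FN1, the fibronectin gene, averaged 16843 ± 63.1 CPM with DMSO and 12112 ± 389 CPM in the senescent control (SD, n = 3; 0.48 ± 0.05, adjusted p = 2.37e-05), and POSTN, the periostin gene, averaged 110.4 ± 6.82 CPM with DMSO and 60.4 ± 1.42 CPM in the senescent control (0.87 ± 0.08, adjusted p = 5.92e-06). DCN, the proteoglycan decorin, had 283, 284 and 279 CPM in the DMSO libraries, against 553, 535 and 582 CPM in the senescent controls, and fell 1.97-fold (-0.98 ± 0.08, adjusted p = 4.1e-06). LUM, a proteoglycan of the same family, fell alongside (-0.97 ± 0.09, adjusted p = 1.03e-05). PLOD2, a lysyl hydroxylase of collagen, was among the most abundant risers of at least 1.5-fold (0.61 ± 0.09, adjusted p = 0.000455). COL1A1, a chain of collagen I, did not pass (-0.40 ± 0.34, adjusted p = 0.503).

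DMSO replicate 1 differed from the other DMSO libraries on this list. The median over members of the log2 level relative to the senescent control mean was -0.10 in DMSO replicate 1 and 0.17 in DMSO replicates 2 and 3. Leaving out DMSO replicate 1 gave 9 higher, while 6 were higher without senescent control replicate 1 or 2 or DMSO replicate 2 or 3. With the GC trend removed 16 were higher, as were 2694 of all 15433 genes tested in that setting.

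**Figure D3:**
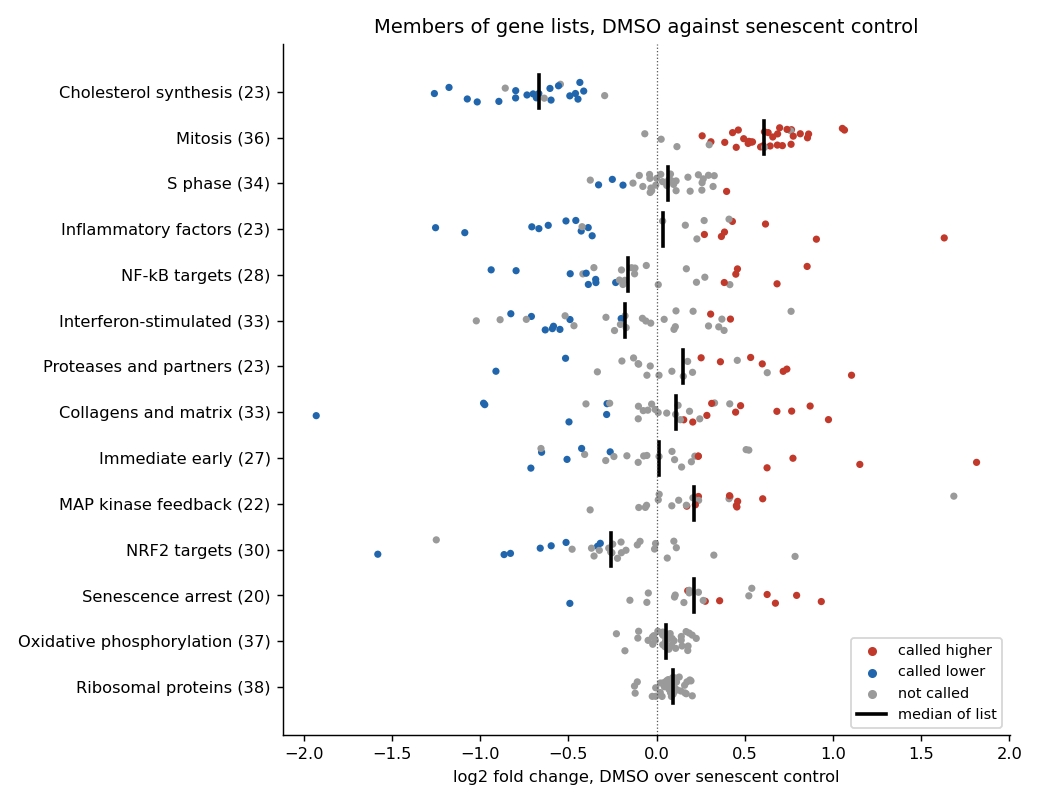
Log2 fold change in DMSO over senescent control cells of every tested member of 14 gene lists (points, with the number tested in brackets), coloured by the call, with the median of each list as a black bar. Cholesterol genes are lower and mitosis genes higher, lists such as the inflammatory factors hold called genes on both sides, and no oxidative phosphorylation or ribosomal protein gene is called.

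Immediate early genes answer growth factor signals within minutes, and the feedback genes of the MAP kinase pathway follow them. Of 27 immediate early genes, 6 rose and 5 fell, against 8.36% and 7.87% of all genes tested. EGR1, a zinc finger factor induced by serum, had 106, 117 and 115 CPM in the DMSO libraries, against 64.6, 66.3 and 66.5 CPM in the senescent controls. It rose 1.71-fold (0.77 ± 0.05, adjusted p = 7.31e-07). EGR3, of the same family, had 5.13, 5.53 and 5.397 CPM in the DMSO libraries, against 1.66, 1.63 and 1.25 CPM in the senescent controls, and rose 3.51-fold (1.81 ± 0.15, adjusted p = 3.05e-06). ATF3 and NR4A2, both stress-responsive, changed by -0.65 and -0.71, and both passed. Without DMSO replicate 1, 3 of the list fell.

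Of 22 MAP kinase feedback genes, 9 rose and 0 fell, against 8.36% and 7.87% of all genes tested. The median was 0.21, and 15 rose with the GC trend removed, as did 2694 of all 15433 genes tested. DUSP5 and DUSP6 encode phosphatases that switch off ERK. DUSP5 had 88.6, 89.1 and 91.1 CPM in the DMSO libraries, against 59.6, 61.5 and 56.1 CPM in the senescent controls (0.60 ± 0.05, adjusted p = 2.63e-06). DUSP6 averaged 421 ± 9.98 CPM with DMSO and 315 ± 14.003 CPM in the senescent control (SD, n = 3; 0.42 ± 0.06, adjusted p = 0.000544). SPRED1, which restrains the pathway upstream of ERK, and EREG, an EGF receptor ligand, changed by 0.45 and 0.41 and were called. AREG, a ligand of the same receptor, had 207, 192 and 197 CPM in the DMSO libraries, against 59.6, 61.2 and 64.5 CPM in the senescent controls. Its groups did not overlap, but it was not called (1.68 ± 0.85, adjusted p = 0.22). Its call turned on the libraries in the fit: in the compared groups alone it was higher (adjusted p = 7.47e-07).

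Called genes of redox defence were mostly lower. NRF2 is the factor that induces glutathione, thioredoxin and quinone-reducing genes under oxidative or electrophilic stress. Of 30 tested NRF2 targets, 0 rose and 8 fell, against 8.36% and 7.87% of all genes tested. The median was -0.26, and 17 fell with the GC trend removed, as did 2586 of all 15433 genes tested. SLC7A11, the cystine transporter that feeds glutathione synthesis, had 30.7, 28.5 and 26.3 CPM in the DMSO libraries, against 86.6, 82.2 and 86.7 CPM in the senescent controls. It fell 2.99-fold (-1.58 ± 0.10, adjusted p = 4.45e-07). NQO1, the quinone reductase, had 80.6, 72.8 and 72.4 CPM in the DMSO libraries, against 142, 135 and 134 CPM in the senescent controls, and fell 1.82-fold (-0.86 ± 0.09, adjusted p = 1.67e-05). SQSTM1, the autophagy adaptor p62, which also releases NRF2 from its inhibitor, had 266, 333 and 342 CPM in the DMSO libraries, against 721, 765 and 632 CPM in the senescent controls (-1.17 ± 0.19, adjusted p = 0.000984).

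Of 35 thioredoxin and glutathione genes, 1 rose and 7 fell, against 8.36% and 7.87% of all genes tested. With the GC trend removed 14 were lower, as were 2586 of all 15433 genes tested in that setting. SOD2, the mitochondrial superoxide dismutase and also an NF-kB target, had 1868, 1669 and 1690.2 CPM in the DMSO libraries, against 3066, 2929.5 and 3085 CPM in the senescent controls. It fell 1.74-fold (-0.80 ± 0.08, adjusted p = 2.19e-05). MGST1, a microsomal glutathione transferase, fell too (-0.88 ± 0.09, adjusted p = 1.85e-05). The thioredoxin gene TXN was at -0.27 (adjusted p = 0.0533) and fell with the GC trend removed (adjusted p = 3.99e-06). PRDX1, a peroxiredoxin that thioredoxin reduces, was at -0.06 without a call.

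The stress and metabolic lists are read against 8.36% of all genes called higher and 7.87% called lower. Their counts with the GC trend removed are read against 2694 genes higher and 2586 lower of 15433 in that setting. Of 30 ATF4 targets, 2 rose and 6 fell, among them SLC3A2, the partner chain of SLC7A11 in the cystine transporter (-0.56 ± 0.07, adjusted p = 0.000121). Of 21 heat shock genes, 0 rose and 4 fell, with the small heat shock proteins HSPB8 (-0.69 ± 0.10, adjusted p = 0.00042) and CRYAB (-0.63 ± 0.13, adjusted p = 0.00345) changing most. The number lower was 2 without senescent control replicate 1 or 3 or DMSO replicate 2, and 9 with the GC trend removed.

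Of 18 chaperones of the endoplasmic reticulum, 5 rose and 1 fell, with PDIA4 (0.45 ± 0.05, adjusted p = 4.77e-05) and HSP90B1 (0.49 ± 0.09, adjusted p = 0.00158) among the risers. The number higher was 3 without senescent control replicate 2 or DMSO replicate 1, and 9 with the GC trend removed. Of 27 genes of glycolysis and hypoxia, 3 rose and 3 fell; SLC2A3, a glucose transporter, rose (0.45 ± 0.07, adjusted p = 0.000787), and ALDOC, an aldolase, did so by less (0.35 ± 0.08, adjusted p = 0.0111; lost without senescent control replicate 1 or DMSO replicate 3). Of 15 genes of xenobiotic metabolism, 2 rose and 6 fell, with NQO1 (-0.86) and MGST1 (-0.88) among the falls and ALDH1A3, which makes retinoic acid, a riser (0.78 ± 0.07, adjusted p = 4.27e-06). Of 12 genes listed for quiescence, inflammation and steroid response, 5 rose and 0 fell, with ERRFI1, an inhibitor of the EGF receptor (0.84 ± 0.10, adjusted p = 5.18e-05), and KLF9 (0.38 ± 0.06, adjusted p = 0.00102) named by their p; without senescent control replicate 1, 3 rose. Of the glycolysis and hypoxia genes, 1 rose and 0 fell without senescent control replicate 1, and 10 rose with the GC trend removed.

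Of 9 tested replication-dependent histone genes, 1 rose and 4 fell, among them H2BC21 (-0.50 ± 0.05, adjusted p = 3.63e-05) and H4C8 (-0.40 ± 0.07, adjusted p = 0.00167), whose sequences are shared in part with other histone genes. Of 22 contractile and YAP target genes, 3 rose and 1 fell. ANKRD1 fell (-0.77 ± 0.12, adjusted p = 0.000825) and CCN2, the connective tissue growth factor gene, rose by less than 1.5-fold (0.24 ± 0.04, adjusted p = 0.00158). Of 23 genes of TGF-beta and BMP signalling, 2 rose and 3 fell, near the shares of 8.36% and 7.87% over all genes tested, with TGFBI higher (0.33 ± 0.05, adjusted p = 0.00022); 1 was lower without senescent control replicate 1 or 2 or DMSO replicate 2 or 3. None of 37 nuclear genes of oxidative phosphorylation and none of 38 ribosomal protein genes was called by edgeR, DESeq2 or limma-voom, with medians of 0.05 and 0.09 and 6 and 5 genes at an unadjusted p under 0.05. Their ranges were -0.23 to 0.22 and -0.13 to 0.20. In the compared groups alone, 6 and 7 of these genes were called higher and 0 lower.

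Markers of other stromal cells moved in places. Of 6 smooth muscle and pericyte markers, 3 rose and 0 fell: NOTCH3 (0.85), RGS5 (0.54) and MYH11 (0.52), while DES, a defining marker, was at 0.177 and 0.1402 CPM. The summed level of the list was 384 to 453 CPM in the DMSO libraries and 364 to 417 CPM in the senescent controls. Of 5 endothelial markers, TEK fell (-0.92 ± 0.09, adjusted p = 1.21e-05) and none rose. The sum of that list was 88.4 to 94.1 CPM in the DMSO libraries and 162 to 173 CPM in the senescent controls, almost all of it TEK. CDH5, which defines endothelial cells, had 18 counts over the DMSO libraries and 22 over the senescent controls. Of 12 fibroblast markers, 2 rose (VIM and TWIST1) and 3 fell (DCN, LUM and COL3A1). The call of NOTCH3 was lost on leaving out any single library other than DMSO replicate 1, that of MYH11 without senescent control replicate 3, and that of COL3A1 without any single library other than senescent control replicate 3. Of 25 lysosomal genes 2 rose and 1 fell, 1 of 14 MHC class I genes and 1 of 4 metallothioneins fell, and none of the other members of those lists was called. Over all genes tested, 8.36% were called higher and 7.87% lower, and the lysosomal rises and the MHC class I fall were near those shares. The part of these markers in the results was not tested.

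Of the 10 largest rises and the 10 largest falls, EGR3 and SLC7A11 belonged to a list described above. Among called genes with a mean of at least 1 on the log2 CPM scale and no overlap between the groups, LRFN5, a synaptic adhesion protein, rose most. It had 18.5, 18.8 and 18.04 CPM in the DMSO libraries, against 3.93, 4.597 and 4.0004 CPM in the senescent controls (2.14 ± 0.15, adjusted p = 5.61e-07). CD69, best known as an early activation marker of lymphocytes, had 5.44, 4.69 and 4.27 CPM in the DMSO libraries, against 0.7299, 1.29 and 1.35 CPM in the senescent controls (2.11 ± 0.21, adjusted p = 1.24e-05). MIAT, a long noncoding RNA, had 12.02, 12.6 and 11.7 CPM in the DMSO libraries, against 3.24, 3.16 and 3.25 CPM in the senescent controls (1.91 ± 0.10, adjusted p = 1.54e-07).

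The other large rises were in RASL12 (1.91), EGR3, ANGPT2, a ligand of the receptor encoded by TEK (1.66), FLT1, a VEGF receptor (1.65), RGS4, a regulator of G-protein signalling (1.61), MED12L (1.598) and DCSTAMP (1.54). FLT1 had 38.8, 35.3 and 37.7 CPM in the DMSO libraries, against 11.8, 12.4 and 11.5 CPM in the senescent controls. ANGPT2 had 10.99, 9.86 and 9.24 CPM in the DMSO libraries, against 2.88, 2.72 and 3.9004 CPM in the senescent controls. Both pairs of groups lay far apart relative to their spread.

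The largest fall was in IVL, the involucrin of the epidermal cornified envelope, which had 2.38, 3.22 and 2.97 CPM in the DMSO libraries, against 12.6, 11.5 and 11.6 CPM in the senescent controls (-2.05 ± 0.14, adjusted p = 2.23e-06). NPR3, the clearance receptor of natriuretic peptides, changed by -1.86, TNFSF14, a TNF family ligand, by -1.86, and NR3C2, the mineralocorticoid receptor, by -1.65 on the log2 scale. DIO2, which activates thyroid hormone, had 45.2, 36.9 and 40.9 CPM in the DMSO libraries, against 106, 100.1 and 113 CPM in the senescent controls (-1.38 ± 0.09, adjusted p = 5.67e-07). SLC7A11 ranked among the same falls, with SLC7A14 (-1.41), EBF3 (-1.38), the noncoding PDCD6IP-DT (-1.32) and GPRC5A (-1.32). Several of these genes were low in all libraries, and their folds rest on few counts.

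The distance between the DMSO and control sets bears on what a TRi-1 library is compared with. Both TRi-1 contrasts share libraries with the contrast above and with each other, so their values stand side by side and are not independent. A log2 change over DMSO is close to that over the senescent control less that of DMSO over senescent control. A difference by baseline therefore restates the difference between the control sets. Against DMSO, TRi-1 cells had 1222 genes higher (7.64% of those tested) and 1954 lower (12.2%). Against the senescent control, they had 895 higher (5.6%) and 1564 lower (9.78%). Counts of list members called in the TRi-1 contrasts are read against these shares. The split of calls moved with the setting: 36.4% of the calls against the senescent control were higher, and 47.3% with the GC trend removed.

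Mitosis genes differed by baseline. Against DMSO, 25 of the 36 were lower and 1 higher in TRi-1 cells, and against the senescent control 0 were lower and 6 higher. MKI67 averaged 34.3 ± 0.234 CPM in TRi-1 cells, and its TRi-1 change was -0.74 ± 0.07, adjusted p = 4.22e-06 over DMSO. Over the senescent control it was 0.08 ± 0.07, adjusted p = 0.514. LMNB1 averaged 6.22 ± 0.527 CPM in TRi-1 cells, with changes of -0.85 over DMSO and 0.08 over the senescent control, and only the first was called. The 6 risers against the senescent control dropped to between 1 and 3 when any 1 library was left out.

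Cholesterol genes differed the other way. Against DMSO, 4 of 23 were higher and 0 lower in TRi-1 cells, and against the senescent control 0 were higher and 16 lower. The median over members relative to the senescent control mean was -0.45, -0.48 and -0.54 in the TRi-1 libraries, nearer to 0 than in any DMSO library. INSIG1 changed in TRi-1 cells by -0.12 ± 0.07, adjusted p = 0.27 over DMSO, without a call. Over the senescent control its change was -1.38 ± 0.07, adjusted p = 1.36e-08.

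**Figure D4:**
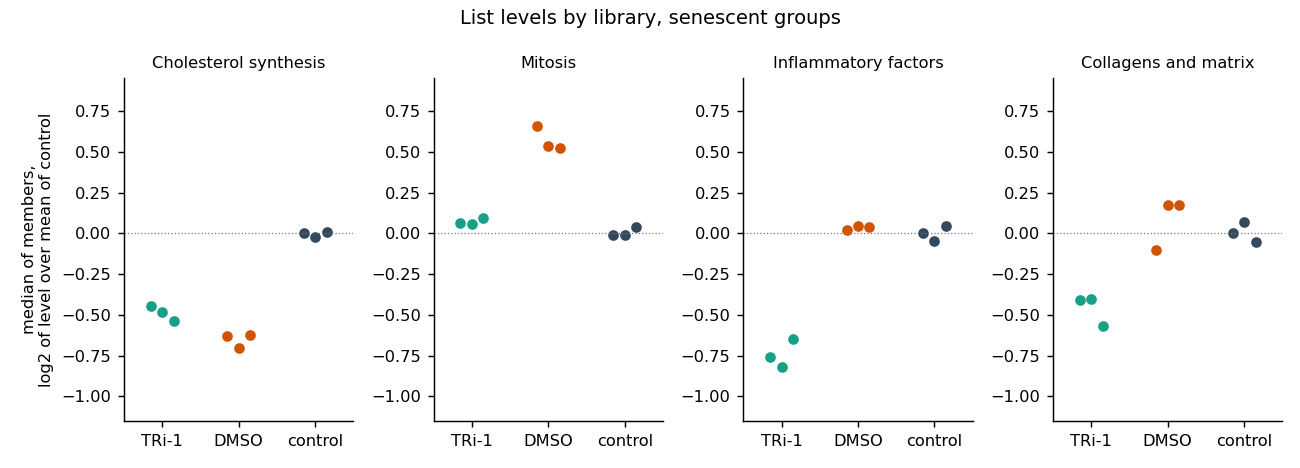
Median over list members of the log2 level relative to the mean of the senescent control libraries (level + 0.5 CPM) in each TRi-1, DMSO and senescent control library, for 4 lists. Cholesterol genes are lower in both the TRi-1 and the DMSO libraries, mitosis genes are higher in the DMSO libraries, and the inflammatory median is lower in the TRi-1 libraries.

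The inflammatory factors were lower in TRi-1 cells against either set: 15 lower and 1 higher of 23 over DMSO, and 16 lower and 1 higher over the senescent control. The size of the change depended on the baseline. CXCL8 changed by -0.94 ± 0.10 over DMSO and by -1.33 ± 0.11 over the senescent control. IL6 changed by -0.39 ± 0.05 and -0.82 ± 0.05 in the same contrasts. All 4 were called. CCL2 changed sign: it was higher over DMSO (0.23 ± 0.06, adjusted p = 0.0107; adjusted p = 0.0503 without DMSO replicate 1) and lower over the senescent control (-1.03 ± 0.06, adjusted p = 1.75e-08). IL11 was lower over DMSO (-0.97 ± 0.05, adjusted p = 1.65e-08) and not called over the senescent control (-0.06 ± 0.05, adjusted p = 0.459).

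Of 30 NRF2 targets, 3 were higher and 5 lower in TRi-1 cells over DMSO, and 2 were higher and 9 lower over the senescent control. Of 35 thioredoxin and glutathione genes, 8 were higher and 5 lower over DMSO, and 2 were higher and 5 lower over the senescent control. Over all genes tested, 7.64% were higher and 12.2% lower over DMSO, and 5.6% and 9.78% over the senescent control. The thioredoxin and glutathione genes lower over DMSO and higher over the senescent control were near these shares. So were the NRF2 targets higher in either contrast. SLC7A11 averaged 30.2 ± 0.951 CPM in TRi-1 cells, and its change was 0.09 ± 0.10, adjusted p = 0.618 over DMSO. Over the senescent control it was -1.50 ± 0.10, adjusted p = 2.23e-07. NQO1 changed by 0.17 over DMSO without a call and by -0.70 over the senescent control with one. TXNRD1 itself was at 0.08 over DMSO (adjusted p = 0.483) and at -0.26 over the senescent control (adjusted p = 0.026), a call lost without any single senescent control library or TRi-1 replicate 1 or 2. With the GC trend removed, SLC7A11, NQO1, TXNRD1 and ICAM1 were called over DMSO as well. PLAT and COL6A3, which were higher in DMSO cells, changed in TRi-1 cells by -0.88 and -0.66 over DMSO, both called, and by 0.22 and 0.11 over the senescent control, neither called except in the compared groups alone. ICAM1 had -0.08 over DMSO without a call and 0.77 over the senescent control with one.

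**Figure D5:**
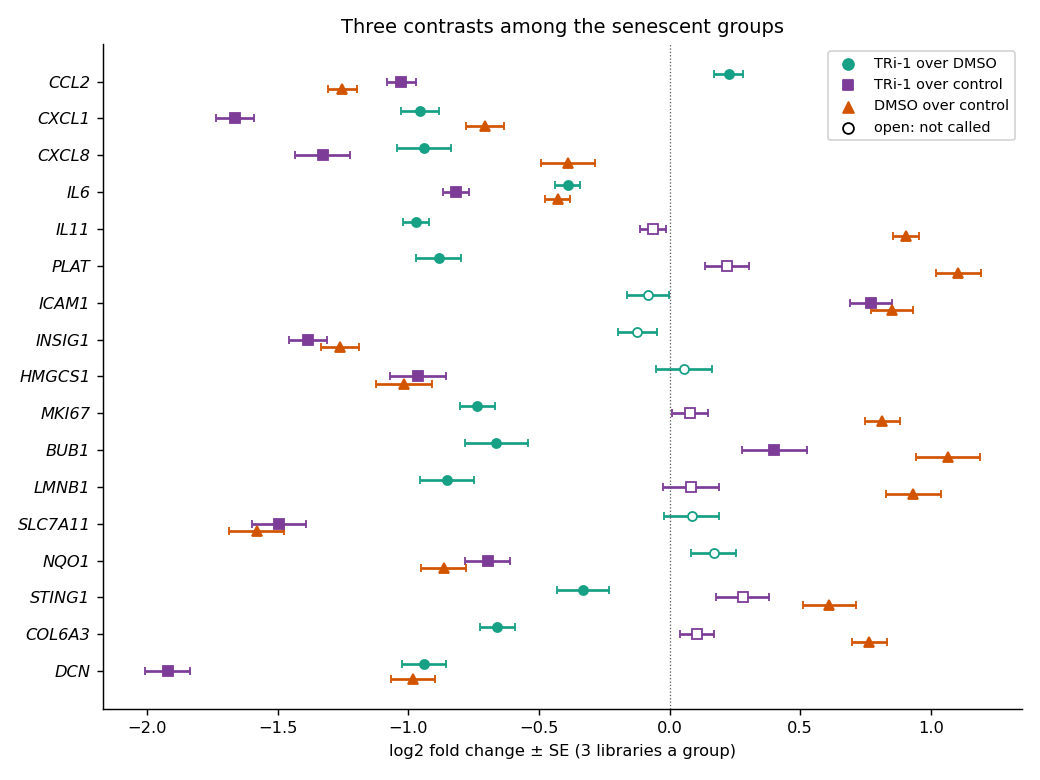
Log2 fold change ± SE (n = 3 libraries a group) of 17 genes in TRi-1 over DMSO, TRi-1 over senescent control and DMSO over senescent control cells, with filled symbols for called changes and open symbols for changes not called. CCL2 lies above 0 in TRi-1 over DMSO and below 0 in TRi-1 over senescent control, and MKI67 and LMNB1 are called only in the contrasts that hold the DMSO libraries.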

How the data were processed

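Per the labels' protocols, RNeasy columns with a DNase step gave the RNA, KAPA RNA HyperPrep the libraries, which were read as 75-bp pairs on a NextSeq 500. The deposited values are unscaled counts, whole numbers per Ensembl gene. RSEM 1.2.3, DESeq2, hg19 and mm10 stand in the submitters' processing notes. The sources used here do not give the aligner, annotation or strand setting, and counts under RSEM may be rounded estimates.

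TMM scaling preceded the quasi-likelihood test of edgeR 4.0.16 (R 4.3.3), with 1 coefficient for each of the 5 groups, all 15 libraries and 10 residual degrees of freedom. The filterByExpr filter left 15994 of 57736 genes. P-values were two-sided, adjusted by Benjamini-Hochberg over all genes tested, and called under 0.05. Symbols were matched by identifier for all but 5435 genes. Promoters are from RefSeq (250 bases before the start).

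Genes were named by a rule: a panel of 12, the 10 largest rises and falls, the 2 smallest p-values of each main list and of other lists with at least 4 calls, and the 3 most abundant changes of 1.5-fold each way. That gave 77 genes; others were added after their values were seen. Some of these genes are not reported here. The members and lists were chosen with earlier results of these data known. CCL3, CCL5, MMP12, TXNIP and PECAM1 were not analysed here. Alternatives were DESeq2 1.42.0, limma-voom (limma 3.58.1), other scalings and filters, a GC correction, a replicate block, and each library left out.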

Additional observations from a re-analysis of the deposited data

How the results depend on the processing

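Under the 16 alternatives no gene called between DMSO and senescent control cells changed sign. The counts of higher and lower genes were 893 to 1022 and 842 to 971 with 1 library left out, against 1337 and 1258 with all. In the compared groups alone 2229 genes were higher, and with the GC trend of each library removed 2694 were higher and 2586 lower. For TRi-1 over DMSO, 812 genes were higher with no filter on low counts, 2344 higher and 3037 lower in the compared groups alone, and 2472 higher and 2991 lower with the GC trend removed; leaving out 1 library gave 772 to 845 higher and 1372 to 1550 lower. For TRi-1 over the senescent control, 2400 were higher and 2650 lower in the compared groups alone, and 2338 and 2608 with the GC trend removed; leaving out 1 library gave 526 to 632 higher and 1120 to 1334 lower. The cause of these differences was not tested, and leaving out a library also lowered the number of samples. HRAS, not called here, changed sign with the GC trend removed (0.0566 on the log2 scale) and ranged from -0.171 to 0.0702 with 1 library left out. With the replicate number as a block, 1116 genes were higher and 1060 lower; same-numbered DMSO and control libraries deviated with correlations of 0.097, 0.131 and -0.101, and DMSO replicate 1 correlated best with control replicate 3, so the numbers were not taken as pairs. For a single gene the smallest p of an exact permutation test of 3 against 3 is 0.1. Intervals for low genes are wide: in 5 bins of genes by level, 5.19% were called in the lowest bin and 21.6% in the highest.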

Other observations

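The genes here are in no list and were chosen after their values were seen, so they describe themselves and no group. FADS1, a fatty acid desaturase, had 129, 125 and 127 CPM in the DMSO libraries, against 227, 225 and 237 CPM in the senescent controls (-0.85 ± 0.05, adjusted p = 1.82e-07, edgeR with Benjamini-Hochberg). SCD, the stearoyl-CoA desaturase, had 98.4, 92.9 and 94.7 CPM in the DMSO libraries, against 176, 175 and 188 CPM in the senescent controls (-0.91 ± 0.07, adjusted p = 1.02e-06). FADS2 (-0.91), LPIN1 (-0.50), TMEM97 (-0.97) and ACAT2 (-0.62) also fell. FASN, the fatty acid synthase, and SREBF1, which encodes SREBP1, were at -0.87 and -0.87 without a call (adjusted p = 0.289 and 0.0757), and both were called lower with the GC trend removed. Other fatty acid genes were not called: ELOVL5 was at 0.03 (adjusted p = 0.883), ELOVL1 at -0.17 (adjusted p = 0.0517) and ACSL4 at -0.20 (adjusted p = 0.199). ABCA1, a cholesterol exporter induced by sterols, was at 0.06 (adjusted p = 0.625).

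Some genes of cell division outside the mitosis list were called and others were not. CIT, a kinase of cell separation, had 30.7, 32.997 and 33.8 CPM in the DMSO libraries, against 14.03, 13.5 and 14.5 CPM in the senescent controls (1.21 ± 0.07, adjusted p = 1.54e-07), and ASPM, a spindle pole protein, rose (0.94 ± 0.11, adjusted p = 5e-05). FOXM1, a factor that drives mitosis genes, was at 0.15 and ANLN at 0.18, without a call except with the GC trend removed, and TACC3 was at 0.14 (adjusted p = 0.637). TNFSF15, a TNF family cytokine, had 1089, 1010.2 and 982 CPM in the DMSO libraries, against 518, 492 and 537 CPM in the senescent controls (0.99 ± 0.09, adjusted p = 4.83e-06).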
